A study of Mus musculus with 20 samples.

Results

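The dystrophin and utrophin glycoprotein complex was described through 8 genes, Dmd, Utrn, Dag1, Sgca, Sgcb, Sgcd, Sntb1 and Dtna, which were taken from the count table by gene symbol. All 8 were among the 26722 genes of the count table, and all 8 were among the 14605 genes that passed the filter on low counts. Their counts were between 382 and 9190 in every library, so none was near the detection limit of 3 counts. The cells were C2C12, an established mouse myoblast line, grown for 5 days in differentiation medium to form myotubes and then treated for 16 hours.

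Each of 5 treatments had 4 libraries, described by the submitters as biological replicates, and all 20 received an antibody at 7.7 nM. The control myotubes received the b12 antibody in hIgG4 format, a negative control. The second group received the bivalent 13-3B5 hIgG4 antibody, which activates the muscle-specific kinase MuSK. The group called agrin here received 0.1 nM neural agrin together with the b12 antibody. In the remaining groups 0.1 nM neural agrin was combined with 13-3B5xb12 or with 11-3F6xb12, which are monovalent MuSK antibodies labelled as inhibiting. One cell line in culture, without nerve or basal lamina from other cells, was the model throughout, and what a shared replicate number stands for is not given in the labels.

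The complex connects the cytoskeleton of a muscle fibre with the laminin of its basal lamina. Dystrophin binds actin inside the fibre and the β subunit of dystroglycan at the membrane, and α-dystroglycan on the outside binds laminin, perlecan and agrin. Utrophin, the autosomal relative of dystrophin, is enriched at the neuromuscular synapse, where agrin and MuSK also act. The sarcoglycans stabilise dystroglycan in the membrane, and syntrophins and dystrobrevins form the cytoplasmic, signalling side. Loss of dystrophin causes Duchenne muscular dystrophy, and loss of a sarcoglycan causes limb-girdle forms.

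Transcript length set these genes apart from each other. In GENCODE release M21 on GRCm38, Dmd lies at chrX:82948870-85206141 on the plus strand and its longest transcript, Dmd-203, has 14910 bases. Utrn lies at chr10:12382188-12869365 on the minus strand, with a longest transcript of 12382 bases. The other 6 genes have longest transcripts of 1724 bases (Sgca, chr11:94962791-94976327, minus strand) to 6295 bases (Dtna, plus strand). Between them stand Sgcb with 3786 bases (chr5:73632749-73647790), Sgcd with 4453 bases (chr11:46896253-47988969), Sntb1 with 4919 bases (chr15:55636388-55906949) and Dag1 with 5662 bases (chr9:108204634-108263958), all on the minus strand. The 1 exon overlap with another gene was that of Dtna with the antisense gene Gm47898, which shared 90 bases and had a mean of 0.2 counts, or 0.01% of the Dtna count.

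The count of a gene sums all its start sites. This matters most for Dmd, which has 14 annotated transcripts and is also made in short forms from internal starts in many tissues. RefSeq (GRCm38.p6) lists 2 Dmd starts, 2099.4 kb apart, and the 250 bases before each are shown because the counts cannot separate their products. The window before the Sgca start is shown beside them as that of the shortest transcript, a gene of striated muscle. Capitals mark E-boxes (CANNTG, the site of myogenic bHLH factors such as MyoD) and CArG boxes (the site of serum response factor), both strands searched.
Dmd, first start (chrX:82948620-82948869, plus strand): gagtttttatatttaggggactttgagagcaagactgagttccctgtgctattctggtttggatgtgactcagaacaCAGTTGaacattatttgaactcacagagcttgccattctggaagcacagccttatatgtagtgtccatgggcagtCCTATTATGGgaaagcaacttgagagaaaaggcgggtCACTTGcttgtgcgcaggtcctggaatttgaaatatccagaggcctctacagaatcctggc
Dmd, internal start (chrX:85048045-85048294, plus strand): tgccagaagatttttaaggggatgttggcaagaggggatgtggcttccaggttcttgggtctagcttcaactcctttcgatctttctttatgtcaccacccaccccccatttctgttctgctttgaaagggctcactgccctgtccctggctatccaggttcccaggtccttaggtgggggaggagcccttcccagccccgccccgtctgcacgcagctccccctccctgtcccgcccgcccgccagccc
Sgca (chr11:94976328-94976577, minus strand): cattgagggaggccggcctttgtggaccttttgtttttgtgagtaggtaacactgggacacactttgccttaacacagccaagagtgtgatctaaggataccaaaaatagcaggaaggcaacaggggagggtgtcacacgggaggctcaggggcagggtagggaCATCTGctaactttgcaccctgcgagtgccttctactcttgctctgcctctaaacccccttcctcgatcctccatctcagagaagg

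The first Dmd window held 2 E-boxes, 173 and 61 bases before the start counted to the motif's first base (positions -173 and -61), and 1 CArG box, CCTATTATGG, at -98. It had a GC content of 45.2%. The internal Dmd window held neither motif, had a GC content of 60.0% and held 3 SP1 boxes (GGGCGG or CCGCCC). The Sgca window held 1 E-box, CATCTG, at -86. Of 32851 RefSeq windows of the same length, 66.2% held an E-box, 1.5% a CArG box and 32.7% an SP1 box. The N-box (TTCCGG or CCGGAA), known from promoters of synaptic genes, stood in 3952 of all 32851 windows and in none of the 8 member windows. A motif of that frequency can be missing from so few windows by chance, so its absence does not set the members apart. The 8 member windows belong to 6 of the members, and no window of Sntb1 or Dtna was included. The Utrn window lay before the start at chr10:12861735. GENCODE also lists Utrn starts further upstream, up to chr10:12869365, and those were not searched. The 2 Dag1 windows overlap each other. The motif matches are descriptions of letters and were not tied to any measured start site.

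Count totals were between 18424881 and 23343903 per library, and between 16261 and 18259 genes had at least 1 count. The mitochondrial share was 27.9% to 39.1%. Myotube markers (Ckm, Acta1, Myh3, Myh8, Myog, Mymk, Tnnt3 and Des) summed to between 7239 and 8829 CPM in every library, where CPM is the usual count scaled by the normalised library size. Markers of dividing or undifferentiated cells summed to 99.7 to 189 CPM, of fibroblasts to 13.2 to 25.0 CPM and of Schwann or neural cells to 0.848 to 5.07 CPM. Liver markers summed to at most 0.254 CPM, except in agrin replicate 3 with 9.49 CPM. Over all genes, deviations from the mean rose with transcript length most steeply in agrin + 13-3B5xb12 replicate 1 and control replicate 2, by 0.146 and 0.121 on the log2 scale per doubling of length, against -0.061 to 0.054 in the other 18 libraries. Several values below move without these 2 libraries, and the main ones are given both ways.

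None of the 8 transcripts passed the test of a difference between treatments. With edgeR's quasi-likelihood F-test and Benjamini-Hochberg adjustment over all genes, 0 of 8 passed an adjusted p of 0.05 in any of the 4 comparisons, agrin against control, bivalent 13-3B5 against control, and each monovalent antibody with agrin against agrin. The percentage of all 14605 genes that passed was also 0.00 in each of the 4. At an unadjusted p under 0.05 the shares of all genes were 2.85%, 2.77%, 3.83% and 3.33% in that order, and 1 member, Dtna, was among them, in the last comparison. The 32 log2 fold changes of the members lay between -0.18 and 0.19, with standard errors of 0.08 to 0.13. Their 95% intervals reached from -0.41 to 0.35, which bounds a fall to 0.754-fold and a rise to 1.28-fold. A test of any difference among the 5 treatments called 0 of 8 members and 0.00% of all genes, with 2.25% of genes and no member under an unadjusted 0.05. With the replicate number as a block, 0 of 8 members and 0.0137% of all genes were called for agrin + 11-3F6xb12 against agrin and for any treatment, and 0.00% in the other 3 comparisons. In bulk RNA, fewer cells of a type and less RNA per cell cannot be told apart.

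**Figure D1:**
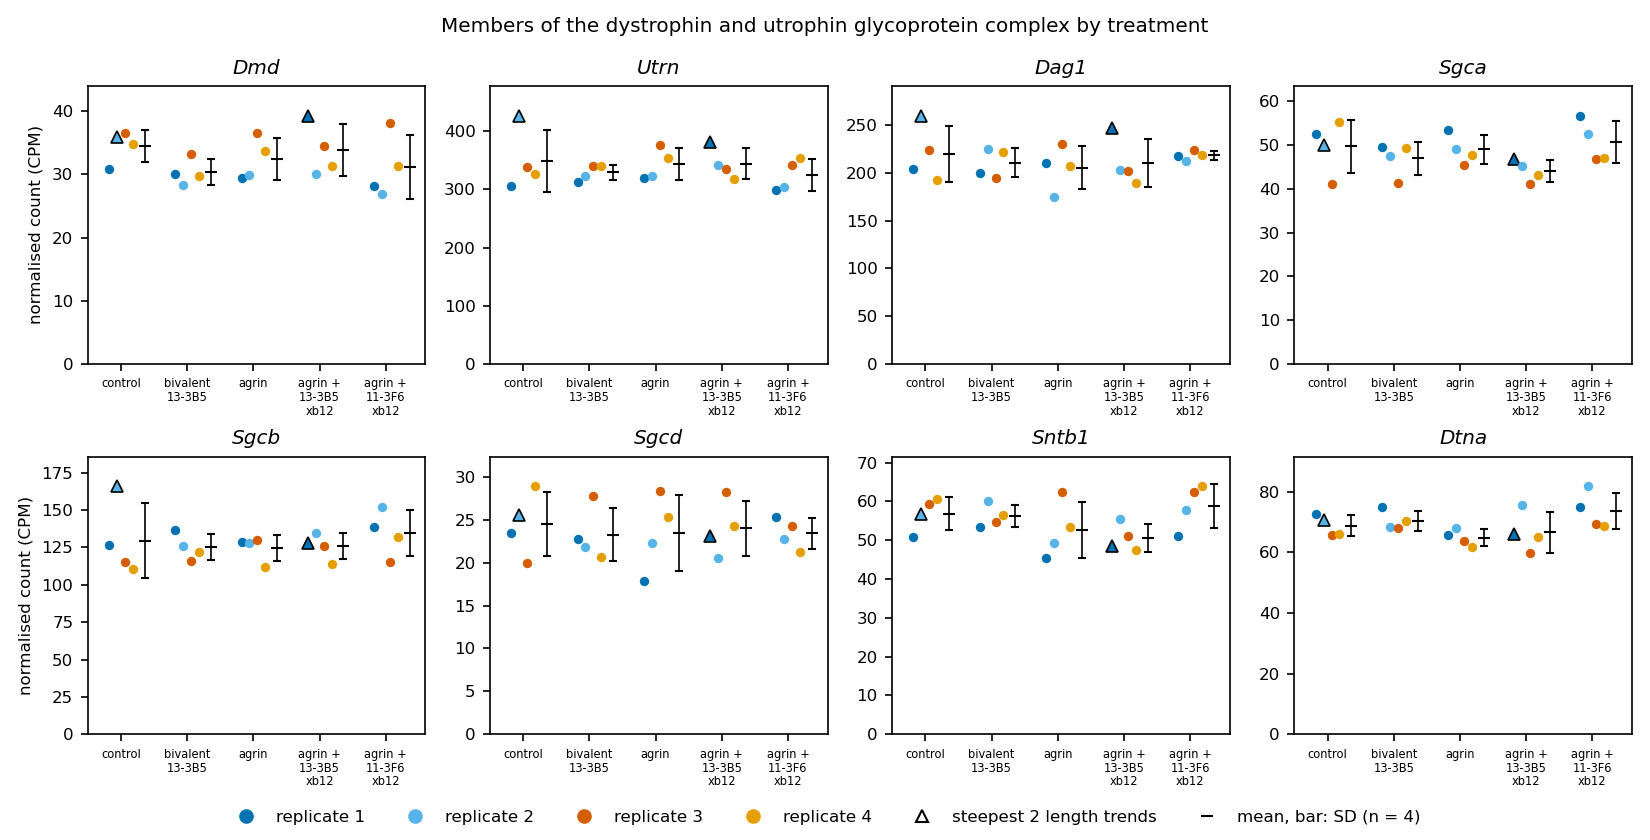
Normalised counts (CPM, linear axis from 0) of the 8 genes in each of the 20 libraries, coloured by replicate number, with the mean and SD of the 4 libraries of a treatment, and triangles for the 2 libraries with the steepest length trends. In the 4 comparisons made the groups overlap for every gene except Dtna, whose 4 libraries with agrin + 11-3F6xb12 lie between 68.8 and 81.8 CPM, above the 4 agrin libraries at 61.6 to 68.1 CPM.

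Dystrophin (Dmd) did not pass the test in any comparison. In the control it had 30.8, 36.0, 36.5 and 34.8 CPM in replicates 1 to 4. With bivalent 13-3B5 it had 30.1, 28.4, 33.3 and 29.8 CPM. Each bivalent library was below the control library of the same number, but the groups overlapped, since control replicate 1 was below bivalent replicate 3. The log2 fold change was -0.18 with a standard error of 0.11 (95% interval -0.41 to 0.04, edgeR adjusted p = 0.999). With a correction for transcript length this Dmd value was -0.07, with and without the replicate block. With agrin the values were 29.5, 29.9, 36.6 and 33.7 CPM, a log2 fold change of -0.09 against the control (standard error 0.11).

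Neither monovalent antibody gave a Dmd difference from agrin alone that passed the test. Agrin + 13-3B5xb12 gave 39.3, 30.1, 34.5 and 31.4 CPM, and agrin + 11-3F6xb12 gave 28.2, 26.9, 38.2 and 31.4 CPM. The highest of all 20 values, 39.3 CPM, was in the library with the steepest length trend. Log2 fold changes against agrin were 0.06 and -0.06, with a standard error of 0.11 each. Without the 2 libraries with steep trends the first of these was -0.02.

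Utrophin (Utrn) did not pass the test in any comparison, and its 2 highest values stood in those same 2 libraries. Control replicates 1 to 4 had 306, 427, 338 and 327 CPM. Bivalent 13-3B5 gave 313, 324, 341 and 339.9 CPM, and agrin gave 320.3, 323, 377 and 355 CPM. The control value of replicate 2 was the highest of all libraries, and the other 3 controls lay within the range of the treated libraries. Agrin + 13-3B5xb12 gave 381, 342, 336 and 318 CPM, again highest in the library with the steep trend, and agrin + 11-3F6xb12 gave 299, 305, 343 and 355 CPM. The log2 fold changes were -0.02 for agrin and -0.09 for bivalent 13-3B5 against control, each with a standard error of 0.09, and both turned positive without control replicate 2, to 0.09 and 0.03. Against agrin they were 0.00 and -0.08, with the same standard error.

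The ratio of Utrn to Dmd was compared next. Per kilobase of longest transcript, the Utrn level was 12.6 ± 0.986 times the Dmd level (SD, n = 20), with single libraries between 10.8 and 14.3. The treatment means of this ratio were 12.2 ± 1.46 in the control, 13.1 ± 0.754 with bivalent 13-3B5, 12.8 ± 0.320 with agrin, 12.3 ± 0.947 with agrin + 13-3B5xb12 and 12.7 with agrin + 11-3F6xb12, where single libraries lay between 10.8 and 13.7 (SD, n = 4 each). Control replicate 2 had a ratio of 14.3, and control replicates 3 and 4 had 11.1 and 11.3. The length trend of control replicate 2 was 0.31 at the length of Utrn and 0.35 at that of Dmd, on the log2 scale. The replicate 2 libraries of the other treatments had ratios of 13.0 to 13.7. The bivalent 13-3B5 libraries, at 12.3 to 13.7, and the agrin libraries, at 12.4 to 13.1, lay within the range of all 4 controls. Both groups were above the 3 controls other than replicate 2. The lowest agrin + 13-3B5xb12 and agrin + 11-3F6xb12 libraries had 11.7 and 10.8. These differences were not tested. With the length of all exons joined in place of the longest transcript the ratio was 14.6. Both ratios treat all counts of a gene as 1 length, although the counts include short forms, so their size depends on that choice.

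Dystroglycan (Dag1), which carries the laminin- and agrin-binding site of the complex, did not pass the test with agrin. Control libraries had 204, 259.8, 224 and 193 CPM and agrin libraries had 209.9, 175, 230.1 and 207 CPM, and the groups overlapped. The log2 fold change was -0.10 (standard error 0.09, 95% interval -0.29 to 0.09, edgeR adjusted p = 1.00). This Dag1 value was -0.01 without control replicate 2 and -0.03 without agrin replicate 2. Bivalent 13-3B5 gave 200.0, 225, 195 and 222 CPM. Agrin + 13-3B5xb12 gave 247, 203, 202 and 189.6 CPM, and agrin + 11-3F6xb12 gave 218, 212, 224 and 219 CPM. The last group was the tightest of the 5, with an SD of 4.89 CPM against 15.1 to 29.5 CPM in the others. Control replicate 2 and agrin + 13-3B5xb12 replicate 1 were the 2 highest Dag1 libraries of all 20.

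**Figure D2:**
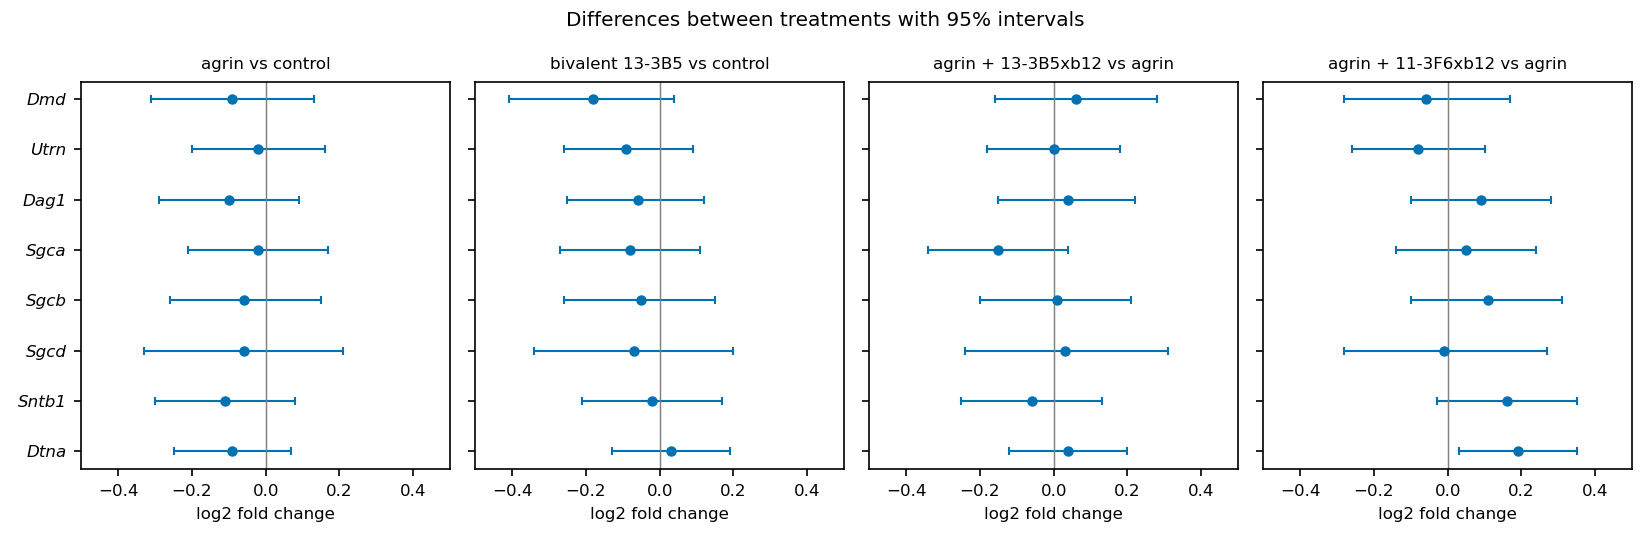
Log2 fold changes (points) with 95% intervals (lines) of the 8 genes in the 4 comparisons, from 1 fit of all 20 libraries. All intervals lie between -0.41 and 0.35, and 31 of the 32 include 0. The comparisons with the control share its 4 libraries, and the comparisons with agrin share the 4 agrin libraries.

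None of the 3 sarcoglycans passed the test in any comparison. α-sarcoglycan (Sgca) had 52.6, 50.0, 41.2 and 55.2 CPM in the control and 53.5, 49.2, 45.5 and 47.8 CPM with agrin. With agrin + 13-3B5xb12 it had 46.8, 45.1, 41.2 and 43.2 CPM, below agrin in 4 of 4 same-numbered pairs though the groups overlapped. That log2 fold change was -0.15 (standard error 0.09, 95% interval -0.34 to 0.04, edgeR adjusted p = 0.999). Bivalent 13-3B5 gave 41.4 to 49.6 CPM and agrin + 11-3F6xb12 gave 46.8 to 56.7 CPM.

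β-sarcoglycan (Sgcb) had 127, 166, 115 and 110.3 CPM in the control, and replicate 2 was the highest of all 20 libraries. Agrin libraries had 129, 128, 129.9 and 112 CPM, and bivalent 13-3B5 libraries lay between 116 and 137 CPM. With the monovalent antibodies the ranges were 114 to 135 CPM (13-3B5xb12) and 115 to 152 CPM (11-3F6xb12). The log2 fold changes against control were -0.06 for agrin and -0.05 for bivalent 13-3B5, and both were 0.09 without control replicate 2. δ-sarcoglycan (Sgcd), the lowest of the 3 per length, lay between 17.9 and 28.9 CPM over all libraries. Its 4 log2 fold changes were between -0.07 and 0.03, with the widest standard error of the 8 genes, 0.13.

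On the cytoplasmic side, α-dystrobrevin (Dtna), a dystrophin relative needed to maintain acetylcholine receptors at mature synapses, gave the largest difference of the 32 in the fit without a replicate block. With the block it was 0.18, beside -0.19 for Dmd with bivalent 13-3B5. Dtna lies at chr18:23415135-23659715. It had 65.8, 68.1, 63.6 and 61.6 CPM with agrin and 74.8, 81.8, 69.4 and 68.8 CPM with agrin + 11-3F6xb12. Every library of the second group was above every library of the first. The log2 fold change was 0.19 with a standard error of 0.08 (95% interval 0.03 to 0.35), and edgeR's adjusted p was 1.00. Groups did not overlap for 2.90% of all genes in this comparison and for 1 of 8 members. In the other 3 comparisons the shares of all genes were 1.72%, 1.88% and 2.31%, for agrin, bivalent 13-3B5 and agrin + 13-3B5xb12 in that order, with 0 of 8 members in each. The remaining Dtna values were 72.5, 70.8, 65.7 and 65.9 CPM in the control, 67.9 to 75.1 CPM with bivalent 13-3B5 and 59.7 to 75.7 CPM with agrin + 13-3B5xb12. The control mean of 68.7 CPM lay between those of agrin alone (64.8) and agrin + 11-3F6xb12 (73.7).

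β1-syntrophin (Sntb1), an adaptor that binds dystrophin, utrophin and dystrobrevin, came next in that comparison. It had 45.4, 49.2, 62.3 and 53.5 CPM with agrin and 51.1, 57.7, 62.5 and 63.9 CPM with agrin + 11-3F6xb12. All 4 same-numbered pairs were higher with 11-3F6xb12, but the pair of replicate 3 differed by less than 1 CPM and the groups overlapped. The log2 fold change was 0.16 (standard error 0.09, 95% interval -0.03 to 0.35, edgeR adjusted p = 1.00), and it was 0.25 without agrin replicate 3. Control libraries had 50.9 to 60.5 CPM, bivalent 13-3B5 libraries 53.5 to 60.2 CPM and agrin + 13-3B5xb12 libraries 47.4 to 55.4 CPM.

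As a group, the 8 genes had small medians of both signs. The median log2 fold change was -0.07 for agrin and -0.07 for bivalent 13-3B5 against control, with all genes at 0.00. It was 0.02 for agrin + 13-3B5xb12 and 0.07 for agrin + 11-3F6xb12 against agrin, with all genes at -0.01 and 0.00. Against the control 8 of 8 (agrin) and 7 of 8 (bivalent 13-3B5) were negative, where 50.1% of all genes were positive. These comparisons use the same control libraries, and without control replicate 2 the negative counts were 6 of 8 and 4 of 8, with medians of -0.03 and 0.00. Without agrin + 13-3B5xb12 replicate 1, the median of that comparison was -0.03, with 5 of 8 negative and Sgcb, at -0.00, counted as neither sign.

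The 2 libraries with steep length trends touched the members unevenly. In control replicate 2, Utrn was above the mean of the other 3 controls by 0.40 on the log2 scale, where the trend of all genes at its length was 0.34. Dmd, the longest transcript, was higher by 0.08 where the trend was 0.38. Sgcb and Dag1 were higher by 0.50 and 0.33, beyond trend values of 0.04 and 0.15. In agrin + 13-3B5xb12 replicate 1, Dmd and Utrn were higher than the other 3 libraries by 0.30 and 0.20, close to trends of 0.27 and 0.24. Dag1 and the short Sgca were higher by 0.32 and 0.12, with trends of 0.09 and -0.15. These libraries were the highest of their treatment for 3 of 8 and 4 of 8 genes.

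**Figure D3:**
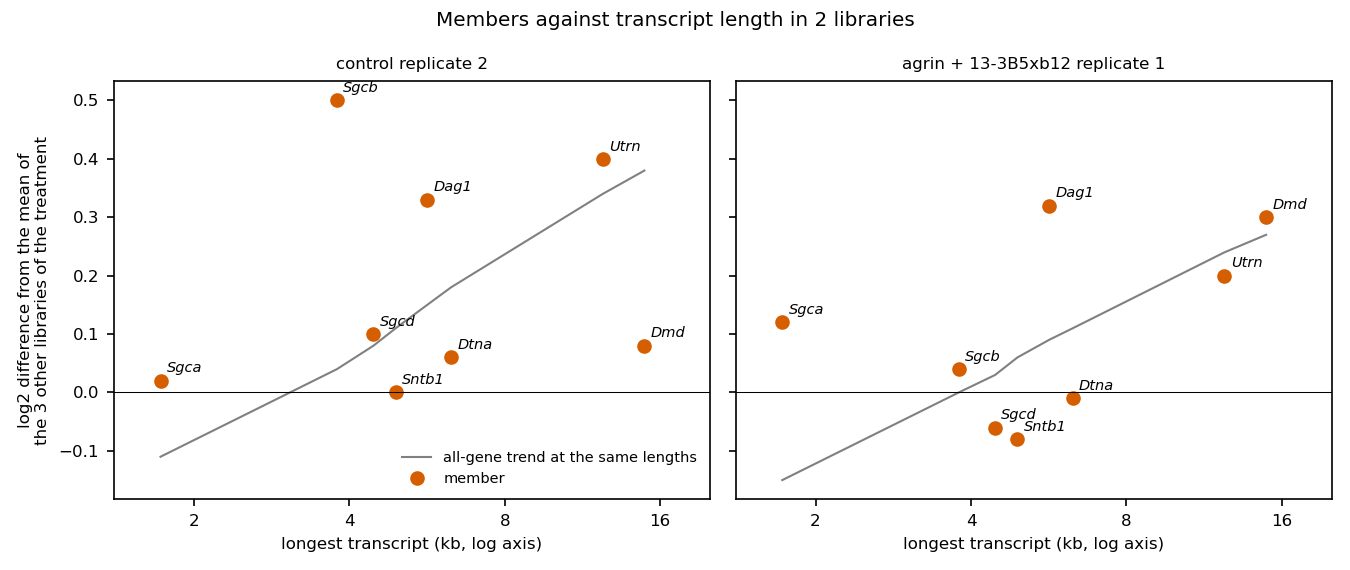
Each gene's log2 difference from the mean of the other 3 libraries of the same treatment against its longest transcript (log axis, kb), for the 2 libraries with the steepest length trends. The grey line is the trend of all genes at the same lengths. Utrn lies near the line in both libraries, Dmd lies near it only in agrin + 13-3B5xb12 replicate 1, and Dag1 lies above it in both.

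Levels between genes were compared per kilobase of longest transcript. Dag1 was highest with 37.6 ± 3.50 CPM per kb (SD, n = 20), followed by Sgcb with 33.8 ± 3.65, Sgca with 27.9 ± 2.61 and Utrn with 27.3 ± 2.44. Neighbours within these 4 overlapped in range. Sntb1 with 11.2 ± 1.10 and Dtna with 10.9 ± 0.836 CPM per kb came next and overlapped each other. Utrn exceeded Sntb1, Dtna exceeded Sgcd (5.33 ± 0.681) and Sgcd exceeded Dmd (2.18 ± 0.239) in 20 of 20 libraries without overlap. Dmd was thus the lowest of the 8 per length of the longest transcript, and with all exons joined it was also below Sgcd (1.36 against 2.87 CPM per kb). Both lengths are long for Dmd, whose counts include any short forms, such as Dmd-201 with 4438 bases. The share of short forms was not measured, so the Dmd rank depends on it. The Dtna level also depended on the length used, and with all exons joined it was 4.07 CPM per kb, without overlap with Sntb1 at 10.3.

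**Figure D4:**
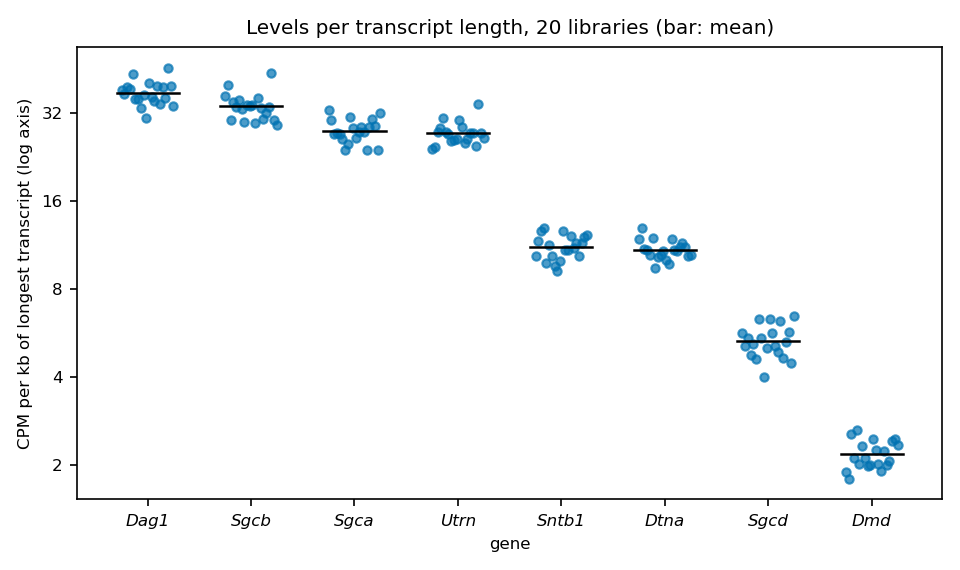
Level of each gene per kilobase of its longest transcript (CPM per kb, log axis) in 20 libraries (points) with the mean (bar). The genes form 4 separate levels, Dag1, Sgcb, Sgca and Utrn at 27.3 to 37.6 on average, Sntb1 and Dtna near 11, Sgcd at 5.33 and Dmd at 2.18 CPM per kb.

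The members were also compared between replicate numbers, over the 5 treatments. In a fit with treatment and replicate number, edgeR called 7.19% of all genes between replicate numbers and 1 of 8 members, Sgcb. Sgcb had means of 132 ± 5.36, 141 ± 17.3, 120.1 ± 7.15 and 118 ± 9.09 CPM in replicates 1 to 4 (SD, n = 5 treatments each), with an adjusted p of 0.0337 by edgeR's quasi-likelihood test. The call was lost, with an edgeR adjusted p of 0.0506 to 0.103, when any 1 of 11 libraries was left out. These were control replicates 2, 3 and 4, bivalent 13-3B5 replicates 1 and 3, agrin replicates 1 and 4, agrin + 13-3B5xb12 replicate 4 and agrin + 11-3F6xb12 replicates 1, 2 and 3.

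Without the 2 libraries with steep trends, 11.8% of 14876 genes and 4 of 8 members were called between replicate numbers. Dmd was then highest in replicate 3, with means of 29.6, 28.8, 35.8 and 32.2 CPM in replicates 1 to 4 (SD 1.07 to 2.01, edgeR adjusted p = 0.0173). Utrn had 309, 323, 346 and 338 CPM (edgeR adjusted p = 0.0421). Sgcb had 133, 135, 119.9 and 118 CPM (edgeR adjusted p = 0.0259). Sgca had 53.0, 48.5, 43.1 and 48.4 CPM (edgeR adjusted p = 0.0352). In these means Dmd and Utrn were higher, and Sgcb and Sgca lower, in replicate 3 than in replicate 1. The 2 libraries left out are of replicates 1 and 2. They held the highest Dmd value (39.3 CPM) and the 2 highest Utrn values (427 and 381 CPM). Leaving them out therefore lowers the Dmd and Utrn means of replicates 1 and 2. The Dmd means of all 20 libraries were 31.6, 30.3, 35.8 and 32.2 CPM in replicates 1 to 4. With all 20 libraries the adjusted p by edgeR was 0.279 for Dmd, 0.853 for Utrn and 0.0714 for Sgca. With the correction for transcript length on all 20 libraries, Sgcb was called and Dmd, Utrn and Sgca were not.

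**Figure D5:**
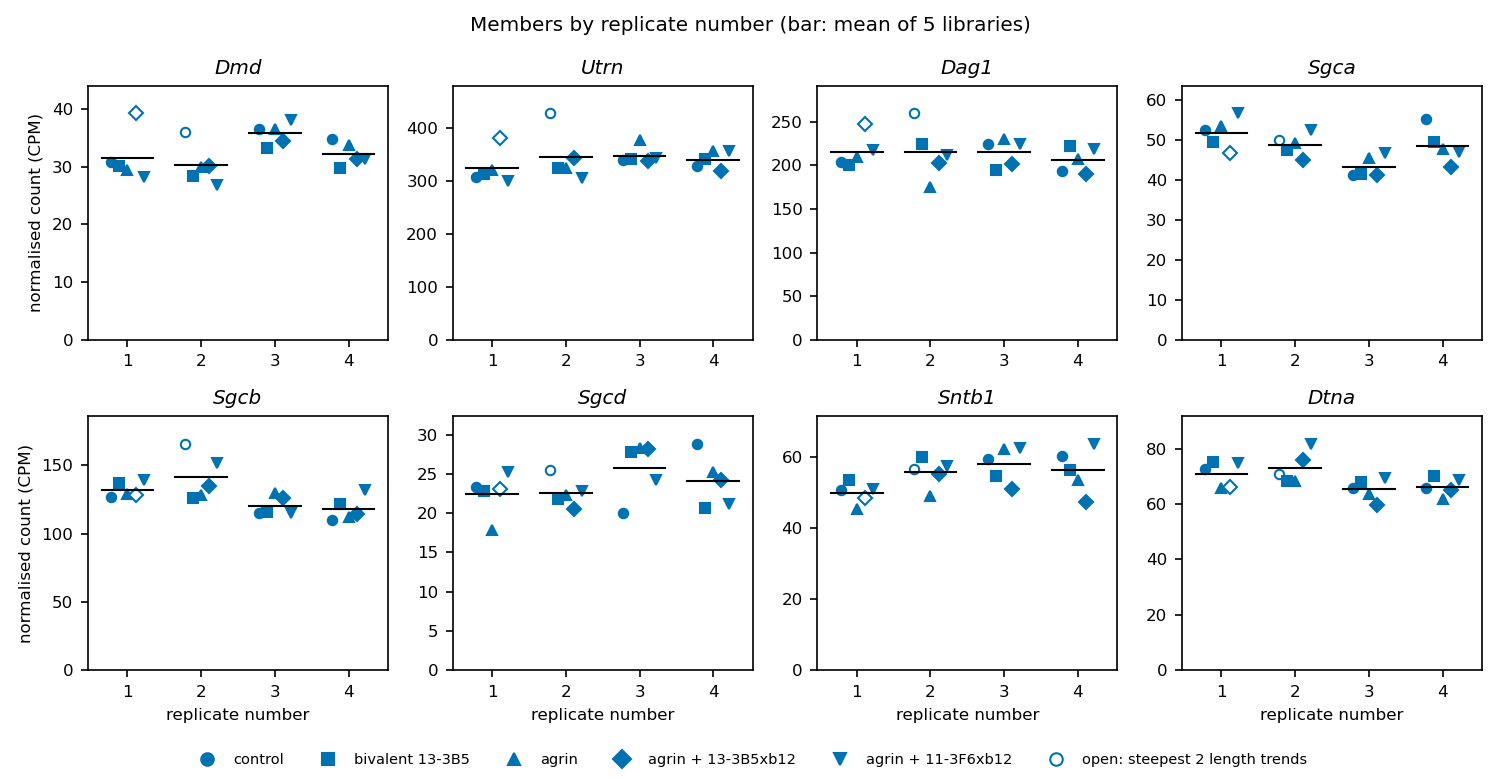
Normalised counts (CPM, linear axis from 0) of the 8 genes by replicate number, 1 symbol per treatment, with the mean of the 5 libraries (bar) and open symbols for the 2 libraries with the steepest length trends. Sgcb has means of 132 and 141 CPM in replicates 1 and 2 and of 120.1 and 118 CPM in replicates 3 and 4, and Dmd has its highest mean, 35.8 CPM, in replicate 3.

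Of the 8 myotube markers, 2 were called between replicate numbers, against 7.19% of all genes. Ckm, muscle creatine kinase, had means of 397, 385, 231 and 244 CPM in replicates 1 to 4 (edgeR adjusted p = 6.09e-07), and Tnnt3, fast troponin T, had 1674, 1649, 1213 and 1243 CPM (edgeR adjusted p = 1.28e-06). The mitochondrial share was 30.2% to 39.1% in replicates 1 and 2 and 27.9% to 32.5% in replicates 3 and 4. The part of these differences in the values of Sgcb and Sgca was not tested.

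Other genes of the complex were described as a list of 12 relatives and partners, among them Sgce, Sspn, Dtnb, Drp2, Cav3 and Nos1, of which 9 were tested. None was called in the 4 comparisons, and their medians were 0.09, 0.05, -0.08 and -0.06 on the log2 scale. Drp2, a dystrophin-related protein best known from Schwann cells, had the smallest treatment p of the list, with 41.6 ± 3.55 CPM in the control and 36.7 ± 1.92 CPM with agrin (SD, n = 4), and an edgeR adjusted p of 1.00. Neuronal nitric oxide synthase (Nos1), which syntrophins hold at the membrane, was among the genes called between replicate numbers and is named after its values were seen. It had means of 5.82, 5.51, 1.62 and 1.87 CPM in replicates 1 to 4 (edgeR adjusted p = 1.38e-06). The Nos1 ranges overlapped, with 3.39 to 9.15 CPM in replicates 1 and 2 and 0.702 to 3.76 CPM in replicates 3 and 4.

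Ligands of dystroglycan and laminin chains (8 of 8 tested) had no call by treatment or replicate number. Their medians were 0.02, -0.13, 0.01 and -0.11 on the log2 scale in the 4 comparisons. Hspg2, which encodes perlecan, had 138 ± 15.6 CPM with agrin and 108 ± 15.7 CPM with agrin + 11-3F6xb12 (SD, n = 4), the smallest treatment p of the list with an edgeR adjusted p of 1.00. Lamb1, laminin β1, was the highest of them per length at 27.2 CPM per kb, with 157 ± 21.3 CPM in the control and 161 ± 13.8 CPM with agrin (SD, n = 4).

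Enzymes that build the laminin-binding sugar of α-dystroglycan (12 of 13 tested) had no call either, with medians of -0.04, 0.00, 0.05 and 0.03 on the log2 scale. Pomgnt1 was highest per length at 21.3 CPM per kb and had treatment means of 71.3 to 75.1 CPM. Pomgnt2 had the smallest treatment p, with 4.51 ± 1.35 CPM in agrin and 2.88 ± 0.641 CPM in agrin + 13-3B5xb12 (SD, n = 4, edgeR adjusted p = 1.00).

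Neighbours at the membrane (Itga7, Itgb1, Plec, Des, Synm, Ank2, Ank3 and Dysf, all tested) had no treatment call, with medians of 0.00, -0.08, 0.03 and -0.08 on the log2 scale. Ank2, an ankyrin that helps place dystrophin and dystroglycan, had 21.2 ± 2.85 CPM in the control and 16.7 ± 0.989 CPM with bivalent 13-3B5 (SD, n = 4, edgeR adjusted p = 1.00 over treatments). The ranges, 17.8 to 24.6 and 15.7 to 17.9 CPM, overlapped slightly. The control includes replicate 2 with its steep length trend, and Ank2 was not examined without it. Des, desmin, was the highest per length at 524 CPM per kb. Itga7, the laminin-binding integrin of muscle, was called by replicate number (edgeR adjusted p = 0.0238), with means of 1519, 1500.0, 1705 and 1657 CPM. It was higher in replicates 3 and 4.

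Members also differed in which genes they resembled over the 20 libraries after each treatment's mean was removed. These are correlations between genes that share libraries, depth and length trends, given as a description over 11148 genes. The genes most like Utrn were Chd8 (Pearson r = 0.94), Fat1 (0.93) and Hipk2 (0.93), with longest transcripts of 8509, 14814 and 7684 bases. Those most like Dmd were Tubgcp2 (0.86), Cand1 (0.86) and N4bp1 (0.84), with longest transcripts of 3341, 7766 and 6469 bases. Those most like Dag1 were Map3k20 (0.91), Slmap (0.91) and Pik3cb (0.90), with longest transcripts of 6663, 5476 and 6478 bases. Among member pairs, Dag1 and Utrn had r = 0.74 and Dmd and Utrn had r = 0.67, while Dmd had r = -0.51 with Sgca and -0.60 with Dtna. With the means of replicate numbers removed as well, r was -0.06 for Dmd with Sgca and -0.30 for Dmd with Dtna. Dag1 with Utrn and Dmd with Utrn then had r = 0.82 each. Dtna and Sgcb had r = 0.61 before and 0.10 after that removal.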

How the data were processed

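Total RNA of 20 C2C12 libraries was sequenced after ribosomal RNA removal with a stranded kit, per the labels' protocols. The submitters' processing notes name Trim Galore 0.6.6, cutadapt 2.10, STAR 2.7.6a, HTSeq 0.12.4, DESeq2 1.32.0 and the GRCm38 build. The annotation release, the strand setting and the treatment of duplicates are not given in the sources used here. The deposited file holds whole-number counts per gene and library, not normalized, and these counts were used as the authors deposited them. Treatments and replicate numbers came from the sample labels. Nothing says whether the biological replicates were separate cultures, so p-values measure the spread between these libraries.

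In R 4.3.3, edgeR 4.0.16 kept 14605 genes (filterByExpr, minimum count 10, minimum total 15), scaled libraries by TMM factors and fitted 1 robust quasi-likelihood model to all 20 libraries with treatment as the factor (15 residual degrees of freedom). Tests were two-sided F-tests with Benjamini-Hochberg adjustment over all tested genes at 0.05. CPM values are counts divided by the TMM-scaled library total, on the usual scale, and log2 CPM used a prior count of 2. Length trends were loess fits (span 0.5) of log2 deviations on the longest transcript over genes with a mean log2 CPM above 1. Gene positions and lengths came from GENCODE M21 by Ensembl ID, and 55 genes had no length. Fits were tested on simulated data.

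The 8 members and all gene lists were chosen with earlier results of these data known. Of each list, the gene with the smallest p over treatments and the gene with the highest mean level per length were named, and for Dmd, Utrn and Dag1 the 3 genes most correlated with each. Some values of the list of relatives and partners are not reported here. Replicates of a treatment differed by at least 5.17 in chi-square per gene, and each counted once, which does not show that they are independent cultures. With agrin + 11-3F6xb12, replicates 1 and 2 differed by 5.17 and replicates 3 and 4 by 8.08. Libraries from different pairs there differed by 30.0 to 38.4. The control did not follow this, with 30.7 between replicates 1 and 2 and 16.2 between 1 and 4. Same-numbered libraries deviated together in every pair (r above 0.1) for bivalent 13-3B5 against control and for both monovalent comparisons (smallest r 0.127, 0.103 and 0.161). This did not hold for agrin against control (0.008). Replicate numbers were taken from the titles. In the first 3 comparisons the best match was the library of the same number in 1, 2 and 2 cases, so same-numbered libraries were not always the closest. The alternatives tried were a block for replicate number, size factors and tests of DESeq2 1.42.0, all genes with a count, each library left out, leaving out the 2 libraries with steep length trends, and a correction for transcript length.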

Additional observations from a re-analysis of the deposited data

Results flagged for a closer look

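Of 40 sets of 4 libraries (8 genes in 5 treatments), 1 held a library far from the others, where chance at 1 in 20 would give 2. Sgcb in agrin replicate 4 had 112 CPM against 128 to 129.9 CPM in the other 3 agrin libraries. The gap to the nearest value was 0.901 of the range of the 4, above Dixon's 95% critical value for 4 samples.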

How the results depend on the processing

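Over all alternatives, 512 log2 fold changes of the 8 genes were computed. None passed the threshold, the largest was 0.25 in size and the smallest adjusted p was 0.372. With the replicate block, 2 genes were called for agrin + 11-3F6xb12 against agrin and 2 over any treatment, neither a member, and no member's call changed. The blocked Dtna value there was 0.18 (edgeR adjusted p = 0.945). The block with the length correction called 2 and 3 genes in those tests. The block without both libraries with steep length trends called 1 gene for agrin + 13-3B5xb12, 17 for agrin + 11-3F6xb12 and 5 over any treatment. With no filter on low counts the calls were 4 (agrin), 2 (bivalent 13-3B5), 6 (agrin + 13-3B5xb12), 13 (agrin + 11-3F6xb12) and 50 (any treatment). Without both libraries, replicate numbers called 1762 genes against 1050. Leaving out 1 library gave 0 calls in every treatment test and 901 to 1325 between replicate numbers. The DESeq2 likelihood ratio test called Sgca between replicate numbers (adjusted p = 0.0236).

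Signs turned for values of up to 0.09 in size, the largest being Utrn with bivalent 13-3B5 against control (-0.09). Other values of that size kept their sign, such as Dmd with agrin (-0.09). The cause was not tested. Without both libraries, against control, Utrn (agrin 0.09, bivalent 13-3B5 0.03), Sgcb (0.09, 0.09) and Dag1 (bivalent 0.03) became positive, and against agrin Dag1 (-0.05), Dmd (-0.02) and Utrn (-0.05) with 13-3B5xb12 became negative. With the block as well, these were 0.09 and 0.04, 0.06 and 0.06, 0.04, -0.05, -0.05 and -0.08, and Sgcd with 11-3F6xb12 was 0.01. With the length correction, Utrn was 0.02 (agrin), 0.03 (bivalent) and -0.02 (13-3B5xb12), Sntb1 was 0.01 (bivalent) and Dmd was 0.02 (11-3F6xb12). With the block added these were 0.02, 0.03, -0.02, 0.01 and 0.01, and Sgcd with 11-3F6xb12 was 0.01 with the block alone and with both.

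Leaving out 1 library turned 31 values, with these ranges: for agrin against control Sgca -0.11 to 0.03, Sgcb -0.13 to 0.09, Sgcd -0.16 to 0.05 and Utrn -0.08 to 0.09, for bivalent 13-3B5 against control Dag1 -0.12 to 0.03, Sgcb -0.12 to 0.09, Sgcd -0.17 to 0.02, Sntb1 -0.07 to 0.01 and Utrn -0.14 to 0.03, for agrin + 13-3B5xb12 against agrin Dag1 -0.05 to 0.10, Dmd -0.02 to 0.12, Dtna -0.03 to 0.09, Sgcb -0.04 to 0.05, Sgcd -0.08 to 0.14, Sntb1 -0.12 to 0.03 and Utrn -0.05 to 0.05, for agrin + 11-3F6xb12 against agrin Dmd -0.17 to 0.01, Sgca -0.01 to 0.10 and Sgcd -0.11 to 0.10.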
